A study of Mus musculus with 65 samples.

Results

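Chaperones and their cochaperones were followed in single outer hair cells (OHCs) of the mouse cochlea at postnatal day 10. The members are the genes whose symbols begin with Hsp followed by a, b, d, e, h or a digit, or with Dnaja, Dnajb, Dnajc, Cct, Bag or Hsf followed by a digit. Pseudogenes were left out, as were 7 genes of the endoplasmic reticulum (ER) or of like name (Hspa5, Hsp90b1, Dnajb9, Dnajb11, Dnajc3, Dnajc5b and Dnajc10). The rule used symbols alone and took 89 of the 55292 genes in the count table. The set is cytosolic only in part. At least 8 members (Hspa9, Hspd1, Hspe1, Dnaja3, Dnajc11, Dnajc15, Dnajc19 and Dnajc30) are known to work in mitochondria. At least 6 (Hspa13, Dnajb12, Dnajb14, Dnajc1, Dnajc16 and Dnajc18) sit in the ER or its membrane. Both lists may be incomplete.

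The series holds 65 hand-picked cells, 48 labelled WT and 17 labelled Casz1 CKO, from mice whose OHC nuclei carried green fluorescent protein. The WT genotype was Slc26a5FlpO/+; Rosa26FSF-H2BEGFP/+, with FlpO recombinase placed at the prestin gene Slc26a5 to switch on the reporter. The CKO genotype was Atoh1Cre/+; Casz1flox/flox; Slc26a5FlpO/+; Rosa26FSF-H2BEGFP/+, so these mice differed from WT in carrying Cre as well as floxed Casz1, a zinc finger transcription factor gene. Atoh1-Cre acts in hair cells and in other Atoh1-derived cells, and the reporter was present in both genotypes. The labels do not say which exons were floxed, so Casz1 counts do not check the deletion and the name CKO follows the label alone.

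Chaperones hold unfolded proteins, release them in cycles of ATP binding and help them to fold or to be degraded. In the HSP70 cycle a J protein delivers the client and triggers ATP hydrolysis, and an exchange factor of the HSP110, BAG or HspBP1 kind then removes ADP. HSP90 takes over kinases and receptors that are partly folded, CCT folds actin and tubulin in a closed ring, and Hspd1 with Hspe1 forms the folding chamber of mitochondria. Heat shock factor 1, the product of Hsf1, raises many of these genes when unfolded protein accumulates, and the inner ear is known to mount this response to heat, noise and ototoxic drugs.

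Depth was alike in both groups. WT cells held 547934202 counts in all, with 7458126 in the lowest cell, a median of 11520603 and 17107710 in the highest. CKO OHCs held 199812603 counts, from 8239671 through a median of 12269271 to 15320549. The labels name no animal, litter or batch, so each genotype is 1 sample: no test was run, and cells serve only to show spread. Levels are counts per 1000000 (CPM) of the counts summed over a genotype, intervals are exact at 95% and cover counting error only, and a ratio is log2 of CKO over WT. Ratios are given again among cells with the Xist pattern (female-type expression, 9 WT and 15 CKO OHCs) and for the runs of WT cells numbered 1 to 11, 12 to 45 and 46 to 48. These are runs that an earlier look at the data had set apart by a mitochondrial transcript. By mt-Co2, every CKO OHC stood above all of WT cells 1 to 11. Only CKO cells 4 and 16 reached the range of WT cells 12 to 45, and WT cells 46 to 48 lay within the CKO range. Most WT cells of the Xist pattern are among WT cells 1 to 11, so genotype, sex pattern and run cannot be told apart fully. The OHC transcripts Slc26a5 (931 CPM in WT, 1175 CPM in CKO OHCs) and Ocm (36667 and 49172 CPM) were counted in every cell. Of the other cell types' marker lists, 3 of 8 inner hair cell, 3 of 12 supporting cell, 5 of 8 glial or neuronal, 1 of 8 blood and 3 of 8 mesenchymal, endothelial or strial genes reached 5 CPM. C1qa and Cx3cr1 were at 0 in every cell, and Sox2 and Mbp at 0 in every CKO OHC. Other markers were present: C1qb in 13 WT and 1 CKO OHCs (18.8 and 3.03 CPM), Fgfr3 in 30 and 6 (40.7 and 12.2 CPM), Gjb2 in 10 and 1 (4.46 and 7.98 CPM), Sox10 in 3 and 2 (0.56 and 2.74 CPM) and Pecam1 in 8 and 3 (2.00 and 8.26 CPM). The part of other cells' RNA in the results was not tested. Per cell, the summed level ran from 0 to 480 CPM in WT and from 0 to 186 CPM in CKO OHCs for the supporting cell list. For the inner hair cell list it ran from 0 to 1041 CPM and from 0 to 314 CPM, and for the blood list from 0 to 188 CPM and from 0 to 73.4 CPM. The glial and neuronal list ran from 149 to 3922 CPM and from 1002 to 2906 CPM, most of it from Calb2, which hair cells also express. The mesenchymal, endothelial and strial list ran from 0 to 546 CPM and from 0 to 177 CPM.

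Promoter stretches of 4 members are shown to describe how alike some of these genes are and where matches to a heat shock element lie. No ratio below was set against these matches. They are RefSeq windows on GRCm38.p6 from 250 bases before to 50 bases after an annotated start, written 5′ to 3′ along the gene's strand. Capitals mark each match to GAANNTTC or TTCNNGAA, 2 adjoining units of a heat shock element, where N is any base. Both motifs read the same on the other strand, so each match covers both strands, and matches that overlap were merged into 1 run of capitals. The first pair are the heat-inducible HSP70 genes Hspa1a (chr17:34972107-34972406, minus strand) and Hspa1b (chr17:34959189-34959488, minus strand), which differ in 4 of 300 columns:
Hspa1a: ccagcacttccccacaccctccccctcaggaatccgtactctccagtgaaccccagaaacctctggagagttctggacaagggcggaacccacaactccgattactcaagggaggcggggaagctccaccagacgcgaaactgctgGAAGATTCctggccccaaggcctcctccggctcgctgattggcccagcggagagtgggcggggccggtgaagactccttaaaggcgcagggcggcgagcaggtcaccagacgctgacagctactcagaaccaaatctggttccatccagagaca
Hspa1b: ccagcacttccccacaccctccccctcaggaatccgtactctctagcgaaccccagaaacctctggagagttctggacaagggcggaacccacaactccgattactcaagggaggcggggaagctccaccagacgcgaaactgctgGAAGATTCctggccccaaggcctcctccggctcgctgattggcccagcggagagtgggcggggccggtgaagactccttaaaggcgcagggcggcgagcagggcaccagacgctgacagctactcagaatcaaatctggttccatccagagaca
The window of Hspe1 (chr1:55087898-55088197, plus strand) shares 285 bases with a window of Hspd1 on the opposite strand, so the run of 3 overlapping matches lies in windows of both mitochondrial chaperonin genes:
Hspe1: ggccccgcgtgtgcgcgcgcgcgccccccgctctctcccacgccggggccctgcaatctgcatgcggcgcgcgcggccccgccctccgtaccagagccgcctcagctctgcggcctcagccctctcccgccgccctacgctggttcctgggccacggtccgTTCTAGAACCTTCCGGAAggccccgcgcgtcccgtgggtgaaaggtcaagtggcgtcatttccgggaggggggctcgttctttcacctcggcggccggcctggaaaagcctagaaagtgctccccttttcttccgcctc
The window of Dnajb1 (chr8:83607925-83608224, plus strand), whose sums were farthest apart in CPM among the members past 2-fold, holds no match:
Dnajb1: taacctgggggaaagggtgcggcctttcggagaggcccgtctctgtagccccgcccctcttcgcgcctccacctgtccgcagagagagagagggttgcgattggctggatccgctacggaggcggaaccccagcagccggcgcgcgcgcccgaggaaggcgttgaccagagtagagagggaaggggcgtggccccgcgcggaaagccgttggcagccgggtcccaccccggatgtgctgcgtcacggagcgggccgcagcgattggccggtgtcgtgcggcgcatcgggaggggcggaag
Among the 32851 windows of the table, 15.1% held at least 1 match, against 23 of 91 windows of members (25.3%, 71 genes matched by symbol) and 10 of 17 windows (58.8%, 11 genes) of the members that HSF1 is known to induce. A match is a description of these letters only. The list of inducible members was drawn up for its biology, and such elements are part of why the genes are on it.

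Of the 89 members, 66 were measured, meaning at least 5 CPM in the genotype where they stood higher; 63 reached that level in WT cells and 66 in CKO OHCs. Another 15 had some counts below it, and 8 (Cct6b, Dnajb7, Dnajc5g, Hsf3, Hsf4, Hspb2, Hspb3 and Hspb7) had none in any cell. The 17 pseudogenes that match the name pattern and were left out summed to 1.63 CPM in WT and 3.25 CPM in CKO OHCs. Transcripts of 13 members were counted in all 65 cells. Counts of all members together took 1.80% of the WT total and 2.22% of the CKO total. Per cell that share was 1.19% at the lowest, 1.75% at the median and 2.44% at the highest in WT cells, and 1.34%, 2.15% and 3.07% in CKO OHCs. The groups overlapped over most of their range, and the CKO OHC was the higher in 72.4% of the 816 pairs of 1 CKO and 1 WT OHC.

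Most members stood a little higher in CKO OHCs. Of the 66 measured, 45 were higher and 21 lower (68.2% higher, against 50.4% of the 10842 measured genes of the table), and the median ratio was 0.22, against 0.0092 over all measured genes. At 2-fold or more, 11 members were higher, which is 16.7% of those measured against a background of 15.1%, so that share is near the background. They were Hspbap1, Dnajc25, Dnajb3, Dnajb1, Dnajc12, Hspa2, Dnajc21, Bag4, Hspbp1, Hspd1 and Dnajc18. Of these, Hspbap1, Dnajb3 and Bag4 reached 5 CPM in CKO OHCs only, so the filter passed them through the group where they stood higher. No member passed through WT cells alone. Only Dnajc14 was lower by 2-fold or more, against a background of 14.5%. Of these 12 members, 5 (Dnajb1, Hspa2, Dnajc25, Dnajc12 and Dnajc14) stayed past 2-fold on the same side whichever 1 cell was left out.

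**Figure D1:**
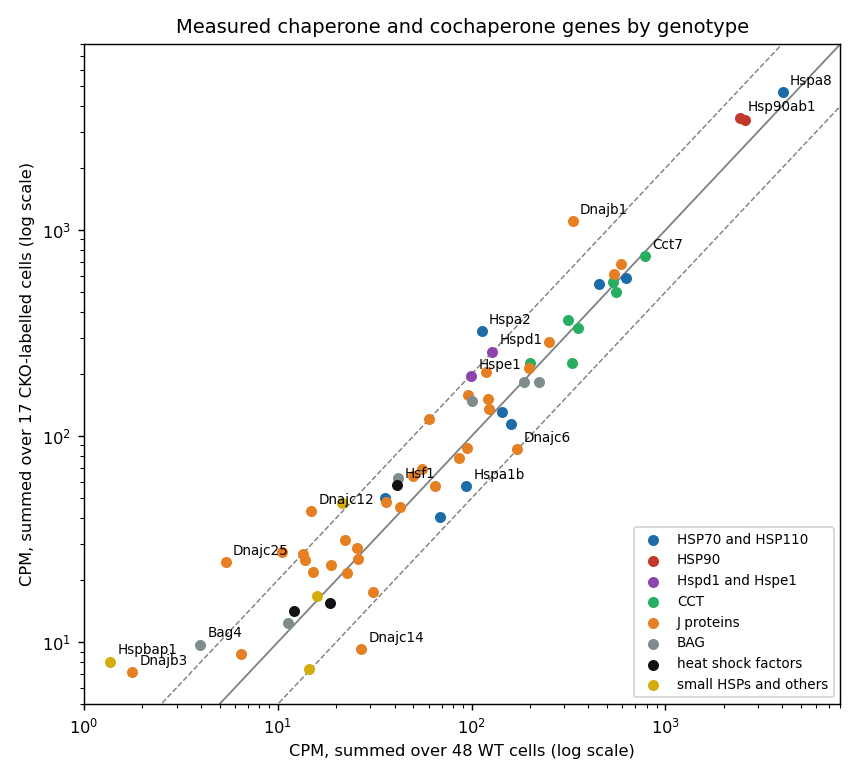
Each point is 1 of the 66 measured members, with its CPM over 48 WT cells across and over 17 CKO OHCs up, both on log scales; the solid line marks equal levels and the dashed lines a 2-fold difference. Most points lie on or just above the solid line, with Dnajb1 (332 and 1104 CPM) and Hspa2 (113 and 324 CPM) the most abundant members beyond the upper dashed line.

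The same counts were taken within subsets of cells. Within the Xist pattern 49 of 65 measured members were higher, against 52.3% of all measured genes. By 2-fold or more, 19 were higher (background 24.4%) and 4 lower (background 19%), with a median of 0.35 against 0.066 over all genes. Against WT cells 1 to 11, 47 of 67 were higher (52.3% of all genes). By 2-fold, 18 were higher (background 22.2%) and 5 lower (background 17.9%), with a median of 0.44 against 0.057. Against WT cells 12 to 45, 44 of 67 were higher (50.1% of all genes). By 2-fold, 9 were higher (background 17%) and 3 lower (background 15.9%), with a median of 0.14 against 0.0014. Against the 3 WT cells 46 to 48, 40 of 67 were higher (54.4% of all genes). By 2-fold, 21 were higher (background 33.9%) and 8 lower (background 21.2%), with a median of 0.19 against 0.15. The members' median thus stood above that of all genes in each subset. The gap was least against WT cells 46 to 48, the run that lay within the CKO range of mt-Co2. The subsets share cells, so they are not separate checks.

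Heat shock factors, which switch on the inducible genes, were sparse. Hsf1 was at 41.3 CPM (40.7 to 41.8) in WT and 57.9 CPM (56.9 to 59.0) in CKO OHCs, a ratio of 0.49, with a count in 31 of 48 and 13 of 17 cells. Single cells ran from 0 through a median of 5.11 to 234 CPM in WT and from 0 through 38.7 to 148 CPM in CKO OHCs, so the ranges overlapped almost wholly, and the CKO OHC was the higher in 60.4% of pairs. The ratio of Hsf1 was 0.16 within the Xist pattern and 0.23, 0.62 and 0.51 against the 3 runs of WT cells. Hsf2, a factor that can pair with HSF1, stood at 12.2 and 14.1 CPM (0.21), and without CKO cell 3 or CKO cell 6 it was lower in CKO OHCs (-0.48 and -0.15). Its ratio was 3.51 within the Xist pattern and 2.48, 0.06 and -1.49 against the 3 runs. Hsf5, best known from the male germ line, stood at 18.7 and 15.4 CPM (-0.27, with -1.26 without CKO cell 13 and 1.87 against WT cells 46 to 48).

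The HSP70 chaperones themselves were dominated by Hspa8, the constitutive cytosolic HSP70. Hspa8 (chromosome 9, 40800984 to 40810087, plus strand) ran from 1780 through a median of 3844 to 6403 CPM in WT cells and from 1877 through 4568 to 7219 CPM in CKO OHCs. The 2 ranges overlapped, with 4 CKO OHCs above every WT cell. Summed, Hspa8 stood at 4021 CPM (4016 to 4026) and 4691 CPM (4682 to 4701), a ratio of 0.22, and the CKO OHC was the higher in 61.2% of pairs. Its exons hold 3 small nucleolar RNA genes on the same strand.

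Hspa2, an HSP70 best known for its part in making sperm, showed the widest ratio of the abundant HSP70 genes. It was counted in every cell, from 0.091 through 69.4 to 407 CPM in WT cells and from 0.17 through 243 to 1389 CPM in CKO OHCs. CKO cells 16, 7, 2 and 4 (1389, 1065, 570 and 494 CPM) were above the highest WT cell, while CKO cells 17, 11 and 15 held under 1 CPM, so both groups reached from near 0 upwards. Summed, Hspa2 (chromosome 12, 76404176 to 76406938, plus strand) stood at 113 CPM (112 to 114) and 324 CPM (321 to 326), a ratio of 1.52. The ratio was 1.78 within the Xist pattern, 2.27, 1.29 and 1.48 against the 3 runs of WT cells, and no lower than 1.28 when any 1 cell was left out. The CKO OHC was the higher in 71.6% of pairs.

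Inducible HSP70 transcripts were uneven from cell to cell, with medians far below the highest cells. Hspa1b ran from 0 through 6.15 to 833 CPM in WT cells and from 0 through 1.79 to 269 CPM in CKO OHCs. Hspa1a ran from 0 through 0.42 to 278 CPM and from 0 through 0.12 to 393 CPM. The open reading frames of the pair are 99.4% identical over 1929 aligned columns. Reads can thus be credited to either copy, and the sum is set beside the single values. How reads that match both copies were counted is not given, so the sum may also be too low. Summed over both, WT cells stood at 129 CPM and CKO OHCs at 108 CPM (-0.27), with medians of 29.3 and 29.4 CPM over single cells. The direction of this sum turned with the cells taken: within the Xist pattern it was 51.6 and 98.9 CPM (0.94), and the ratio was 0.18, -0.40 and -0.50 against the 3 runs of WT cells. Taken singly the copies went opposite ways, Hspa1a at 35.8 and 50.2 CPM (0.49) and Hspa1b at 93.7 and 57.4 CPM (-0.71). CKO cell 5 alone set the direction for Hspa1a, which was at -0.39 without it, and Hspa1b stood at -1.23 without CKO cell 14 and -1.15 without CKO cell 6. Within the Xist pattern both copies were higher, Hspa1a at 1.63 and Hspa1b at 0.34.

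Of the other HSP70 members, Hspa9, the HSP70 of mitochondria, was at 143 and 130 CPM (-0.14). Hspa14, which works with a J protein on the ribosome, was at 69.0 and 40.5 CPM (-0.77, and -1.11 without CKO cell 2). Hspa1l, which lies next to Hspa1a in the opposite direction, had no count in WT cells and 1.26 CPM from 2 CKO OHCs, and with Hspa12a, Hspa12b and Hspa13 it was not measured. The family as a whole was evenly split, 3 members higher and 3 lower of the 6 measured of 10, with a median of 0.042.

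The HSP110 exchange factors, which free HSP70 of ADP, stood in both directions. Hspa4l was at 629 and 586 CPM (-0.10), and its single cells ran from 143 through 626 to 1317 CPM in WT and from 82.8 through 527 to 1336 CPM in CKO OHCs. Hsph1 was at 452 and 548 CPM (0.28), with an equal median of 487 CPM in both groups. Hspa4 was at 160 and 115 CPM (-0.47). The median of the 3 was -0.10. Within the Xist pattern 2 of 3 were higher (Hsph1 at 0.81 and Hspa4l at 0.35, median 0.35), and so were 2 of 3 against WT cells 1 to 11 (Hsph1 at 0.67 and Hspa4l at 0.16). Hspa4 was lower in each subset.

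Both cytosolic HSP90 genes stood higher in CKO OHCs, and they were, with Hspa8, the least scattered over WT cells of the 13 members counted in every cell. Hsp90ab1 (chromosome 17, 45567775 to 45573271, minus strand), the constitutive form, ran from 1118 through 2341 to 4205 CPM in WT cells and from 1232 through 3566 to 5242 CPM in CKO OHCs. Of the 17 CKO OHCs 14 were above the WT median, and 5 were above the highest WT cell. Summed, it stood at 2432 CPM (2428 to 2436) and 3492 CPM (3484 to 3501), a ratio of 0.52, which was 0.57 within the Xist pattern and 0.54, 0.51 and 0.57 against the 3 runs of WT cells. The CKO OHC was the higher in 76.3% of pairs.

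Hsp90aa1 (chromosome 12, 110690605 to 110702728, minus strand), the more inducible form, ran from 1061 through 2488 to 5177 CPM in WT and from 2125 through 3128 to 5158 CPM in CKO OHCs. The highest cells of the groups were level, while the lowest CKO OHC stood at 2125 CPM, above the lowest WT cell. Summed, it was at 2571 and 3419 CPM, a ratio of 0.41, with the CKO OHC higher in 75.9% of pairs. Its ratio was 0.34 within the Xist pattern and 0.23, 0.55 and 0.05 against the 3 runs of WT cells. The coefficient of variation over WT cells was 28.9% for Hsp90ab1, 31.1% for Hspa8 and 34.2% for Hsp90aa1. These 3 genes held 50.1% of all member counts in WT cells and 52.3% in CKO OHCs.

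Small heat shock proteins, which bind unfolded protein without ATP, were nearly absent. Of 8 listed genes 2 were measured: Hspb11, better known as a ciliary transport protein, at 15.9 and 16.7 CPM (0.07, and -0.20 against WT cells 12 to 45), and Hspb6 at 14.4 and 7.41 CPM (-0.96). Hspb6 was counted in 12 WT and 2 CKO OHCs, and all but 1 of its 1481 CKO counts came from CKO cell 14. Without that cell the ratio was -11.38, with a counting interval of -16.68 to -8.90. The direction turned against WT cells 1 to 11 (53 WT counts, 4.44) and WT cells 46 to 48 (1 WT count, 8.07, interval 5.59 to 13.38), so no direction can be given for Hspb6. The classical inducible gene Hspb1 was found in a single WT cell at 18.5 CPM and in no CKO OHC. With 3 counts put in place of 0 over the group it came out 29.5-fold lower. All WT counts came from 1 cell, so no direction can be given for Hspb1 either.

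The mitochondrial chaperonin genes Hspd1 and Hspe1 stood at about the same ratio. Hspd1 (chromosome 1, 55077835 to 55088243, minus strand) ran from 0 through 101 to 740 CPM in WT cells and from 6.83 through 204 to 622 CPM in CKO OHCs, and no CKO OHC was above the highest WT cell. Summed, it was at 127 CPM (126 to 128) and 257 CPM (255 to 259), a ratio of 1.01. Hspe1 (chromosome 1, 55088132 to 55091307, plus strand) ran from 0.46 through 92.9 to 352 CPM and from 0 through 157 to 656 CPM, with 2 CKO OHCs above the highest WT cell. Summed, it was at 99.5 and 196 CPM, a ratio of 0.98. The CKO OHC was the higher in 67.5% of pairs for Hspd1 and in 68.1% for Hspe1.

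This pair sits at the 2-fold line rather than clearly beyond it. Leaving out 1 cell moved Hspd1 between 0.87 (without CKO cell 10) and 1.12 (without WT cell 23), and Hspe1 between 0.72 (without CKO cell 6) and 1.06 (without CKO cell 7). Against WT cells 1 to 11, 12 to 45 and 46 to 48 the ratio of Hspd1 was 1.31, 0.80 and 3.22, and that of Hspe1 1.19, 0.90 and 0.98. Their starts lie 111 bases apart and their exons overlap over 112 bases on opposite strands, so some reads cannot be told apart without strand. Of the 8 mitochondrial members listed above, 7 were measured and 5 were higher, with a median of 0.37. The other higher ones were Dnajc15 (0.37), Dnajc19 (0.39) and Dnaja3 (0.08), and Hspa9 and Dnajc11 (-0.18) were lower. Dnajc15 was at -0.02 within the Xist pattern, and Dnajc11 at 0.69 against WT cells 1 to 11.

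**Figure D2:**
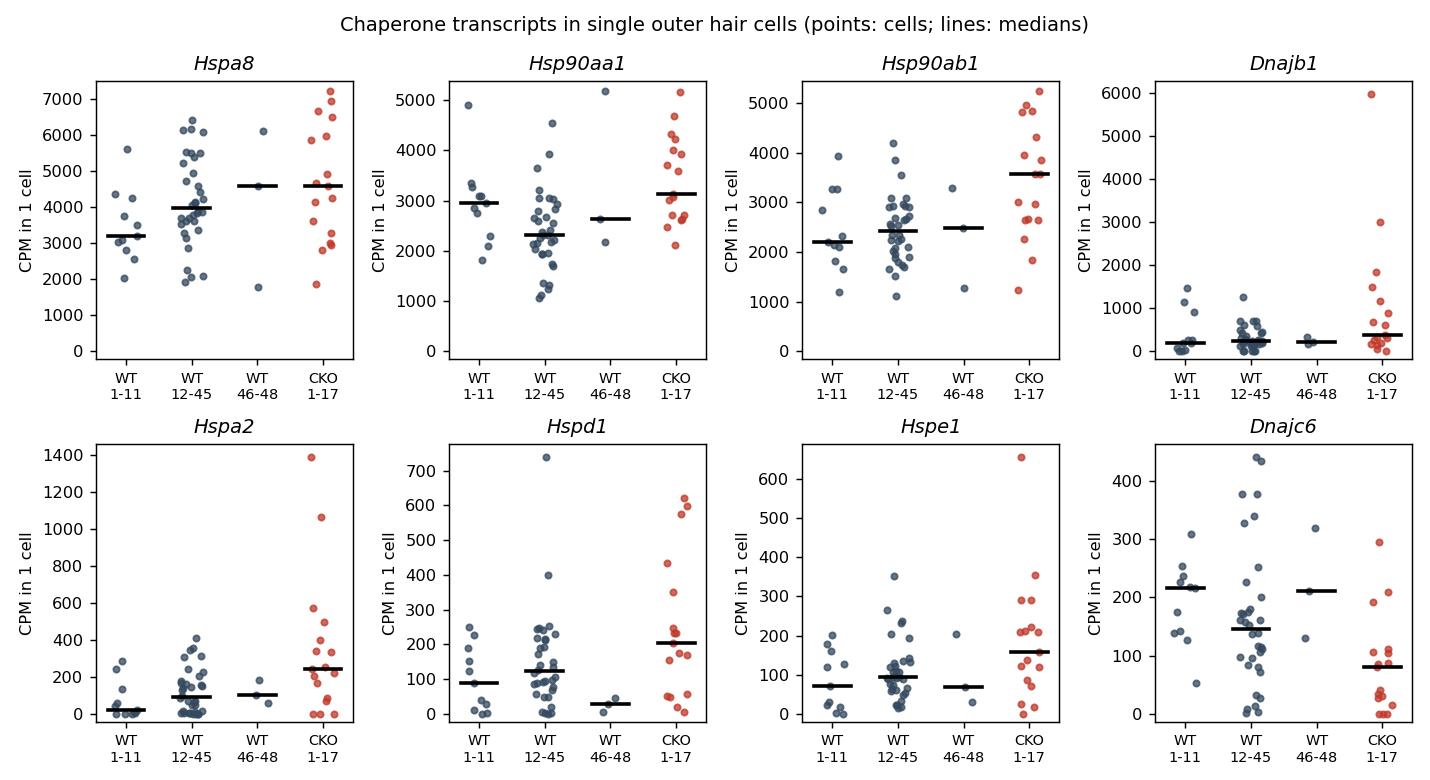
Each point is 1 cell and each short line a median, with CPM on linear axes, for 8 members in WT cells 1 to 11, 12 to 45 and 46 to 48 and in CKO OHCs. Hsp90ab1 has 5 CKO OHCs above every WT cell, Dnajb1 has a long upper tail up to 5975 CPM, and Dnajc6 sits lower in CKO OHCs.

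The CCT chaperonin, whose 8 unlike subunits form a double ring, stood near level. Of 9 listed genes 7 were measured, 3 higher and 4 lower, with none 2-fold apart and a median of -0.08. Tcp1, the remaining subunit gene, does not carry the name pattern. Cct7 was at 788 and 747 CPM (-0.08), Cct5 at 557 and 502 CPM (-0.15) and Cct8 at 538 and 561 CPM (0.06). Cct4 was at 315 and 366 CPM (0.22), and Cct3 at 328 and 227 CPM (-0.53). Cct3 ran from 0 through 315 to 903 CPM in WT cells and from 0.34 through 286 to 389 CPM in CKO OHCs, so the medians were closer than the sums. The directions of Cct7 and Cct8 hung on 1 cell: Cct7 was at 0.0032 without CKO cell 8, and Cct8 at -0.0046 without CKO cell 5 and -0.012 without CKO cell 15. Within the Xist pattern 6 of 7 were higher, with a median of 0.12, and Cct7 was at 0.15; Cct3 stayed lower there (-0.48) but was at 0.12 against WT cells 46 to 48.

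Class A J proteins, which bind clients and hand them to HSP70, stood close to level. All 4 were higher, by little: Dnaja1 at 592 and 685 CPM (0.21), Dnaja2 at 250 and 285 CPM (0.19), Dnaja4 at 199 and 213 CPM (0.10) and Dnaja3 at 42.8 and 45.1 CPM (0.08). Dnaja4 was at -0.11 without CKO cell 11, and Dnaja3 took the other sign without any 1 of CKO cells 5, 6, 9 and 11, at -0.07 to -0.27. Against WT cells 12 to 45, 2 of the 4 were lower, Dnaja3 at -0.06 and Dnaja4 at -0.07; Dnaja4 was at -0.46 against WT cells 46 to 48.

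Class B held the member with the largest difference in CPM among those past 2-fold. Dnajb1 (chromosome 8, 83608193 to 83612653, plus strand) is the J protein that heat shock induces and that drives HSP70 to dissolve aggregates. It ran from 0 through a median of 228 to 1464 CPM in WT cells and from 0.16 through 378 to 5975 CPM in CKO OHCs. The 5 highest CKO OHCs were CKO cells 13 to 17, at 1175, 5975, 1484, 1848 and 2990 CPM, and 4 of them were above every WT cell. The remaining CKO OHCs ran from 0.16 to 898 CPM, within the WT range. Summed, Dnajb1 stood at 332 CPM (330 to 333) in WT and 1104 CPM (1099 to 1109) in CKO OHCs, a ratio of 1.73. CKO cell 14 alone carried much of it, since the ratio without that cell was 1.08. Within the Xist pattern, which leaves out CKO cell 14 as well, the ratio was 1.07. It was 1.47, 1.82 and 2.25 against the 3 runs of WT cells, and the CKO OHC was the higher in 67.6% of pairs.

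The total of CKO cell 14 was the highest of its group, at 15320549 counts, and that of CKO cell 13 the lowest. All members together took 2.27%, 2.90%, 2.70%, 2.38% and 2.56% of the counts of CKO cells 13 to 17. CKO cell 6, with 898 CPM of Dnajb1, had the highest such share of any cell, at 3.07%. CKO cell 7 had the least Dnajb1 of its group, at 0.16 CPM, and also its lowest Hspa8 and Hsp90ab1, at 1877 and 1232 CPM. No label says whether cells with neighbouring numbers were picked together.

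Most of the other class B members were higher over all cells, though not in each subset. Dnajb4, an inducible relative of Dnajb1, ran from 0 through 97.6 to 477 CPM in WT and from 0 through 171 to 509 CPM in CKO OHCs, and summed to 119 and 206 CPM (0.79). Dnajb6, which keeps polyglutamine proteins from aggregating, was at 544 and 610 CPM (0.17), but it was lower within the Xist pattern (-0.36) and against WT cells 1 to 11 and 46 to 48 (-0.21 and -0.38). Dnajb2, found mainly in neurons, was at 95.6 and 158 CPM (0.72), and Dnajb12 of the ER membrane at 13.9 and 24.9 CPM (0.85, and -0.26 against WT cells 46 to 48). Dnajb3 passed 2-fold (1.77 and 7.15 CPM, 2.01) on CKO cell 7 alone, which held 115 CPM while every other CKO OHC was at 0; without that cell the ratio was -6.79, with 3 counts in place of 0, and without WT cell 45 it was 3.78. In all, 6 of 8 measured class B members were higher, with a median of 0.76, against 4 of 8 with a median of 0.53 when set against WT cells 46 to 48.

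Class C J proteins steer HSP70 to set tasks and places, and here they stood in both directions. Of 25 listed, 21 were measured, 15 higher and 6 lower, with a median of 0.33. Dnajc6, or auxilin, which with Hspa8 strips clathrin from vesicles, showed the clearest lower level. It ran from 0.88 through 160 to 441 CPM in WT cells and from 0 through 79.8 to 294 CPM in CKO OHCs, and 14 of 17 CKO OHCs were below the WT median. Summed, Dnajc6 (chromosome 4, 101496648 to 101642799, plus strand) stood at 171 CPM (170 to 172) and 86.2 CPM (84.9 to 87.5), a ratio of -0.98, just inside 2-fold. The ratio was -1.01 within the Xist pattern and -1.13, -0.87 and -1.35 against the 3 runs of WT cells, and leaving out 1 cell moved it between -1.23 (without CKO cell 8) and -0.89 (without CKO cell 6). The WT cell was higher in 76.2% of pairs.

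Dnajc25, a membrane J protein, was found in more of the CKO OHCs. Among 48 WT cells 11 had a count (22.9%), and among 17 CKO OHCs 13 did (76.5%). At 10 counts or more these were 7 and 11 cells, and with each cell thinned to 7458126 counts they were 9 and 13. Cells are not replicates of a genotype, and such shares of cells were not taken over all genes. Levels ran from 0 through 0 to 84.6 CPM and from 0 through 13.3 to 89.1 CPM, and summed to 5.38 CPM (5.19 to 5.58) and 24.4 CPM (23.7 to 25.1), a ratio of 2.18. Against the 3 WT cells 46 to 48 the ratio was -0.25. Without WT cell 47 the pooled ratio was 2.78, and the CKO OHC was the higher in 78.7% of pairs. Another gene model, Gm20503, overlaps 348 bases of its exons on the same strand.

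The other class C members past 2-fold were Dnajc12, Dnajc21, Dnajc14 and Dnajc18. Dnajc12, which guards the enzymes that make aromatic neurotransmitters, was counted in 14 WT and 8 CKO OHCs, at 14.9 and 43.2 CPM (1.54). Dnajc21, needed for ribosome maturation, was at 10.5 and 27.4 CPM (1.38), and without CKO cell 15 or CKO cell 16 it was at 0.58 and 0.82. Dnajc14 was counted in 22 WT and 4 CKO OHCs, at 26.8 and 9.25 CPM (-1.54), and without CKO cell 8 it was at -2.32. Exons of Dnajc14 overlap genes on both strands over 1307 bases. Dnajc18 was found in more cells, 39 of 48 WT and 15 of 17 CKO OHCs, and ran from 0 through 30.5 to 367 CPM in WT and from 0 through 118 to 312 CPM in CKO OHCs, with 13 of 17 CKO OHCs above the WT median. It summed to 60.6 and 122 CPM, a ratio of 1.00 that fell to 0.87 without CKO cell 15 and was 1.15 within the Xist pattern.

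After Dnajc6, the class C members with most CPM over both genotypes were Dnajc7, Dnajc8 and Dnajc5, and their ratios were small. Dnajc8, a splicing factor partner, was at 123 and 136 CPM (0.14, and -0.14 against WT cells 46 to 48), and Dnajc7, which bridges HSP70 and HSP90, at 121 and 152 CPM (0.32). Dnajc5, the cysteine string protein of synaptic vesicles, was at 94.5 and 87.7 CPM (-0.11, and 0.15 against WT cells 46 to 48).

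**Figure D3:**
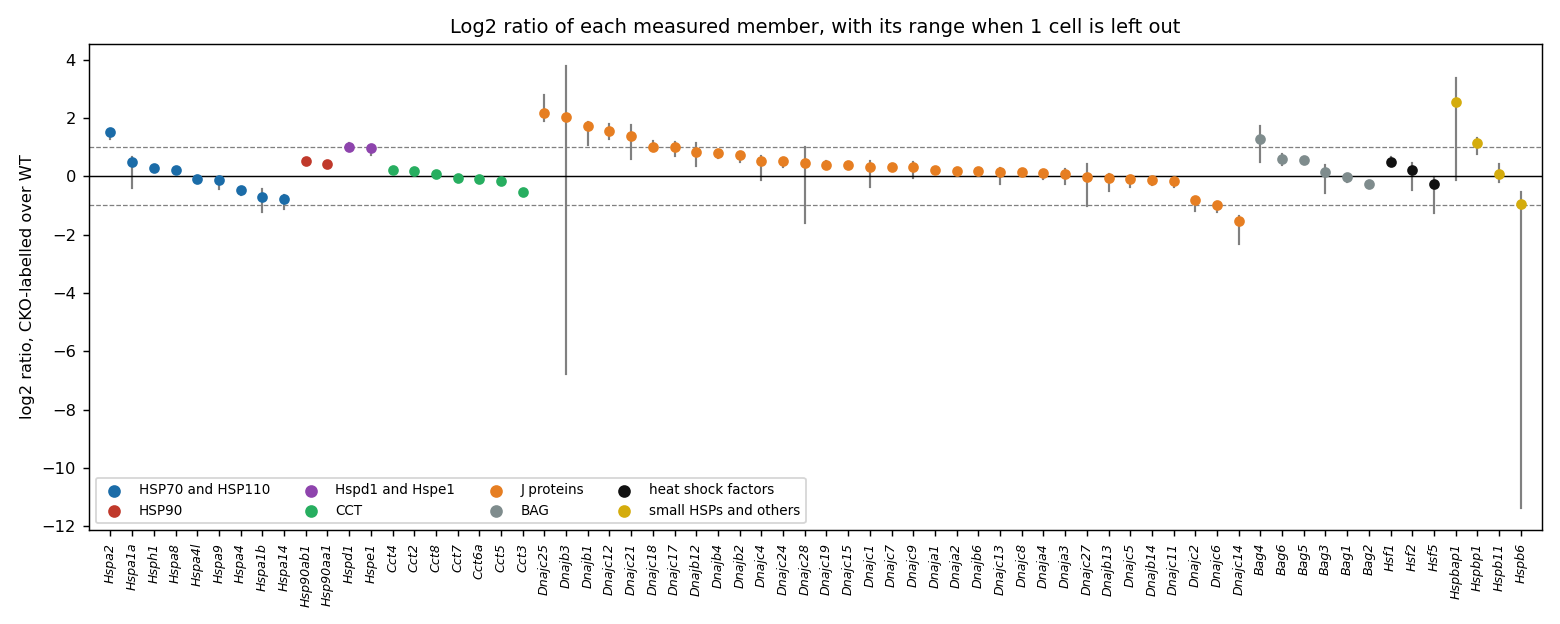
Points give the log2 ratio of CKO over WT for each of the 66 measured members, grouped and coloured by family, and grey bars span the values when 1 cell is left out; dashed lines mark 2-fold. The bars of Hspa8, Hsp90aa1, Hsp90ab1 and most CCT genes are short, while Dnajb3 reaches -6.79 and Hspb6, on 1 remaining count, -11.38 without 1 cell.

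BAG proteins dock HSP70 onto other machinery through a shared exchange domain. Of 6, all measured, 4 were higher and 2 lower, with a median of 0.35. Bag2 was at 222 and 184 CPM (-0.27), Bag1 at 187 and 184 CPM (-0.03), Bag5 at 100.3 and 149 CPM (0.57) and Bag6 at 41.6 and 62.5 CPM (0.59). Bag1 crossed to the other sign without any 1 of 10 cells, at most to 0.05. Bag6 was lower within the Xist pattern (-0.54) and against WT cells 1 to 11 (-0.12), Bag5 lower against WT cells 46 to 48 (-0.14), and Bag2 higher against WT cells 1 to 11 (0.15). Bag3, the inducible BAG protein of selective autophagy, was at 11.2 and 12.4 CPM (0.14). It had a count in 11 of 48 WT and 9 of 17 CKO OHCs, and without CKO cell 5, CKO cell 11 or CKO cell 15 the ratio was -0.12, -0.16 or -0.58. It was 2.76 within the Xist pattern (1.92 CPM in WT, from WT cell 8 alone) and 0.82, 0.16 and -1.33 against the 3 runs of WT cells. Bag4 was at 3.99 and 9.72 CPM (1.29), and without CKO cell 10 or CKO cell 6 it was at 0.47 or 0.80. Hspbp1, a further HSP70 exchange factor, was at 21.3 and 47.4 CPM (1.15), and 0.76 or 0.98 without CKO cell 9 or CKO cell 15. Hspbap1 was at 1.37 and 8.04 CPM (2.56), nearly all from CKO cell 10 at 113 CPM, and its ratio was -0.13 without that cell and 3.36 without WT cell 47.

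Per kilobase of exon, which allows levels to be set between genes, WT cells held the members in a steep order. Hspa8 led at 935 CPM per kilobase, followed by Hsp90ab1 at 811 and Hsp90aa1 at 654, and next came Cct5 at 201, Cct8 at 174, Bag1 at 139, Cct7 at 116 and Dnajb1 at 104. Family medians in WT cells were 97.7 CPM per kilobase for CCT, 62.0 for class A, 10.9 for class B and 7.65 for class C J proteins, and 4.49 for the heat shock factors. In CKO OHCs Hsp90ab1 came first at 1164 CPM per kilobase and Hspa8 second at 1091, and Dnajb1 stood at place 4 with 345, against place 8 in WT. The cells of Hspa8 and Hsp90ab1 overlap widely, so their order is not fixed by these values.

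**Figure D4:**
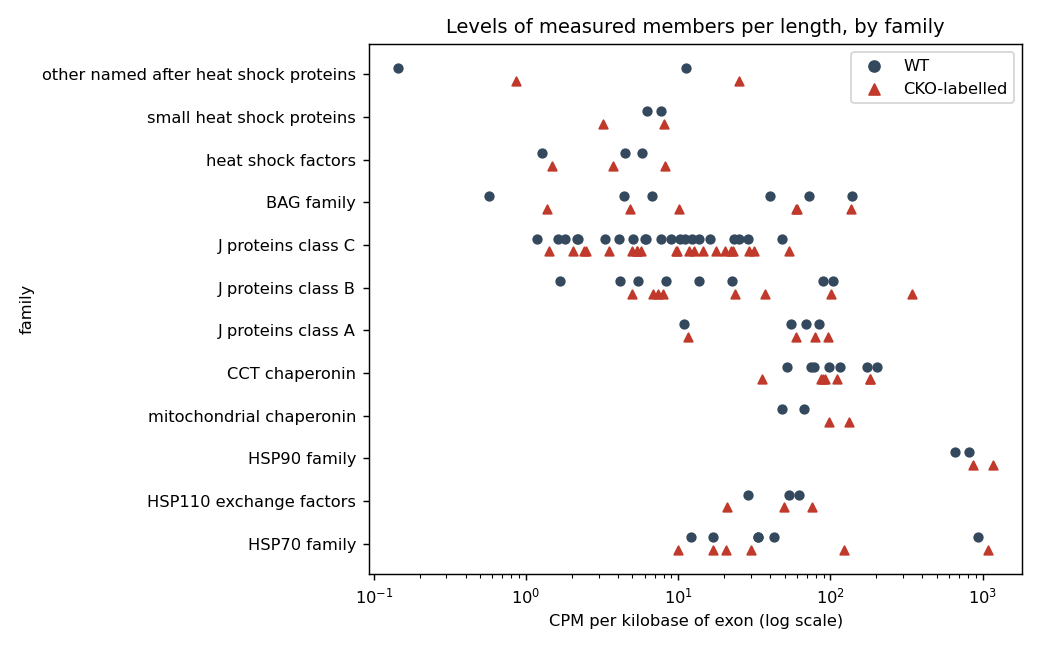
Levels of measured members in CPM per kilobase of exon on a log scale, with 1 row per family, dots for WT and triangles for CKO OHCs. HSP90 and Hspa8 stand apart at 654 or more, and class C J proteins fill the low range.

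Of the 14 members that HSF1 is known to induce on heat shock, 13 were measured, 11 of them higher and 2 lower (Hspa1b and Hspa4l), with a median of 0.41. Among all measured genes 50.4% were higher, with a median of 0.0092. By 2-fold or more 2 were higher (Dnajb1 and Hspd1), against a background of 15.1%. The list median was 0.81 within the Xist pattern and 0.67, 0.40 and 0.42 against the 3 runs of WT cells. Summed over the list, single cells ran from 7118 through 11300 to 16930 CPM in WT and from 8844 through 15099 to 23789 CPM in CKO OHCs, with the CKO OHC higher in 74.3% of pairs. Over all cells the summed Hspa1a and Hspa1b stood slightly lower (-0.27) and Bag3 near level, while Dnajb1 and both HSP90 genes stood higher. That contrast was not seen within the Xist pattern, where all 13 measured members of the list were higher, Bag3 at 2.76 and the summed pair at 0.94. Most WT cells of that pattern are among WT cells 1 to 11, so those subsets overlap. The WT level of Bag3 within the pattern (1.92 CPM) came from WT cell 8 alone.

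How far inducible members varied together was described across cells. Spearman correlations of log2(CPM + 1) were taken over the 66 pairs of the 12 members counted in at least 50% of cells. The points are cells that share picking, library preparation and total counts, and the values are descriptions only. In the 48 WT cells the median rho was 0.13, from -0.22 (Hsp90aa1 with Hspd1) to 0.78 (Hspa1a with Hspa1b), and that near-identical pair was the 1 pair at 0.5 or more. In the 17 CKO OHCs the median was 0.35, from -0.44 (Dnajb1 with Hspa4l) to 0.75 (Hspa8 with Hsp90ab1), and 16 pairs reached 0.5. Hspa8 and Hsp90ab1 were at 0.49 in WT cells, and Hspa8 with Dnajb1 at 0.27 in WT and 0.65 in CKO OHCs. Pearson medians were 0.12 and 0.29, and the Spearman median over the 34 WT cells 12 to 45 was 0.08. Over the 29 members counted in at least 90% of cells the medians were 0.05 and 0.06 over 406 pairs. A median over fewer cells is less precise, and whether the groups differ was not tested.

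**Figure D5:**
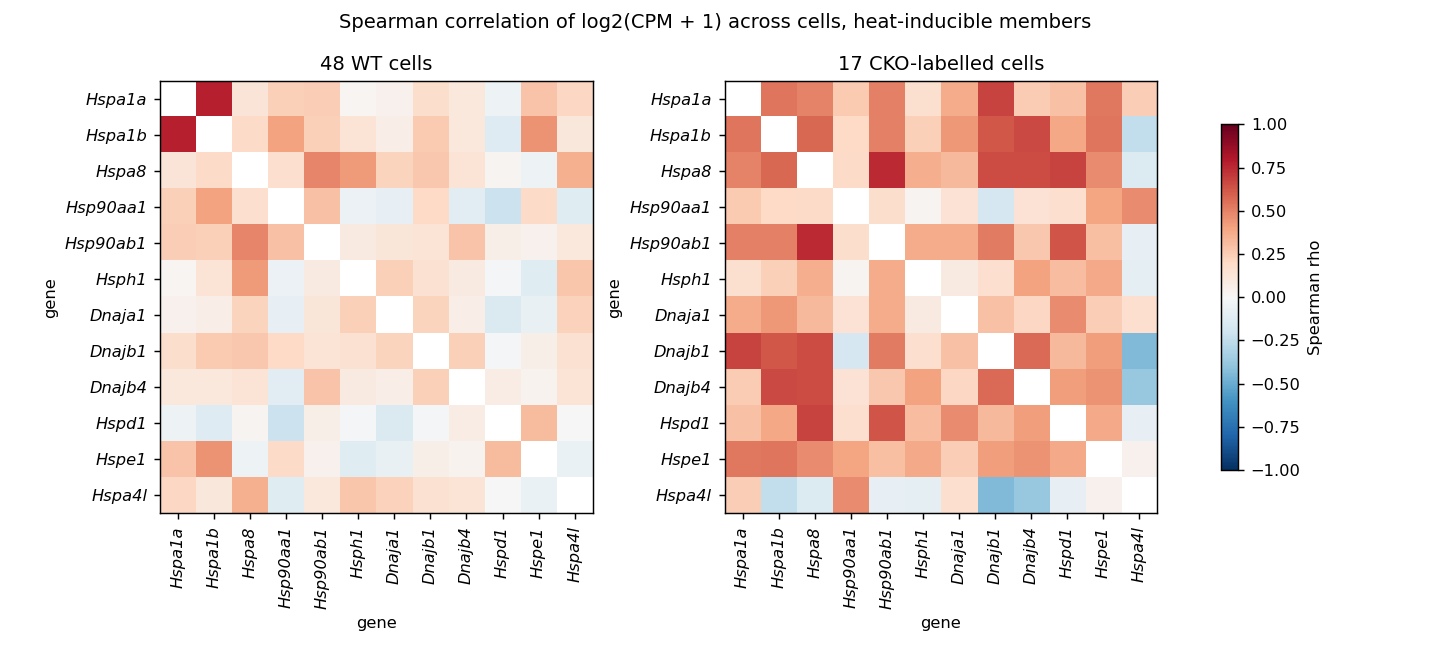
Spearman correlations across cells between the 12 inducible members, for 48 WT cells on the left and 17 CKO OHCs on the right, from blue (-1) to red (1). In WT cells only the pair Hspa1a and Hspa1b is deep red (0.78), while in CKO OHCs 16 of 66 pairs are at 0.5 or more and Hspa4l stays pale or blue with most others.

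Immediate early genes, which tissue handling and stimulation switch on within minutes, stood higher beside the chaperones. Of 14 listed, 12 were measured and all 12 were higher, 7 by 2-fold or more (background 15.1%), with a median of 1.09. Of these 7, Nr4a1, Klf6 and Atf3 reached 5 CPM in CKO OHCs only. The filter thus passed these genes through the group where they stood higher, and Atf3 was counted in only 6 WT and 2 CKO OHCs. Jun was at 636 and 1332 CPM and Egr1 at 352 and 762 CPM. Within the Xist pattern 9 of 12 were higher and Egr1 was lower (-0.78), and against WT cells 1 to 11 Egr1 was near level (0.04). Their mean log2(CPM + 1) per cell went with Dnajb1 at a rho of 0.38 in WT and 0.42 in CKO OHCs. With Hspd1 the values were -0.15 and 0.85, and with Hsp90aa1 0.10 and 0.03. Hspa8, Dnaja1 and Dnajb4 were at 0.33, 0.37 and 0.08 in WT and at 0.56, 0.59 and 0.51 in CKO OHCs. Of the inducible members compared, Hspa4l alone was below 0 in CKO OHCs (0.15 and -0.33). The part of the immediate early genes in the ratios above was not tested.

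Genes outside the name pattern give the setting. Of 30 partners of HSP70, HSP90 and CCT, such as Stip1, Stub1 and the prefoldins, 27 were measured, 11 higher and 16 lower, with a median of -0.13. None was higher by 2-fold (background 15.1%). Cryab, a small heat shock protein of lens and muscle, was the 1 lower by 2-fold (background 14.5%), with counts in 6 WT cells (11.01 CPM) and none in CKO OHCs. Ubqln1, which brings ubiquitinated proteins to the proteasome, was at 192 and 96.4 CPM (-0.99), Pfdn2 of prefoldin at 70.2 and 122 CPM (0.79) and Trap1, the HSP90 of mitochondria, at 49.2 and 31.6 CPM (-0.64). Of 40 proteasome subunit genes 35 were measured, 20 higher and 15 lower, with a median of 0.07. Both medians lay below that of the members (0.22), a difference that was not tested.

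The ER chaperones left out of the members stood higher too. Of 7 genes 6 were measured and all 6 were higher, 4 by 2-fold or more (background 15.1%), with a median of 1.03. Hspa5, the HSP70 of the ER, ran from 0.24 through 306 to 2361 CPM in WT and from 2.81 through 1707 to 5131 CPM in CKO OHCs, and summed to 511 and 1974 CPM (1.95). Hsp90b1, its HSP90, was at 239 and 593 CPM (1.31), Dnajb11 at 150 and 307 CPM (1.03) and Dnajb9 at 33.4 and 67.6 CPM (1.02). Against WT cells 46 to 48 these 4 ratios were 0.86, 0.21, 0.20 and 0.06. Of the 6 members listed above for the ER or its membrane, 4 were measured. Of these, 3 were higher (Dnajb12 at 0.85, Dnajc18 at 1.00 and Dnajc1 at 0.33) and Dnajb14 was lower (-0.13). That list may be incomplete. Dnajc1 was at -0.37 without CKO cell 17, and against WT cells 46 to 48 only 1 of 5 was higher (Dnajc18), with a median of -1.13 and Dnajc1 at -1.13. The difference between the ER and cytosolic sets was not tested.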

How the data were processed

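The authors deposited 1 table of whole-number read counts per gene symbol for 65 single cells; per the labels' protocols, cDNA came from a full-length Smart-Seq HT kit without molecular identifiers and was tagmented. Per the submitters' processing notes, HISAT2 2.2.1, StringTie 2.2.1 and featureCounts 2.0.1 were used on mm10. For the annotation release, strand setting and filters, the sources used here give nothing. All columns matched 1 sample title each, 0 were left unmapped, and no cell was removed.

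Counts were summed per genotype and divided by the summed total (CPM). Sums carry exact Poisson and ratios exact conditional intervals at 95%. They cover counting error only, since reads that lack molecular identifiers do not stand for separate molecules. A genotype without a count was set to 3 counts, over the group, for a ratio. A gene was measured from 5 CPM upwards in its higher genotype and called at 2-fold. With 1 sample per genotype, no test was run. Ratio code was tested on simulated data. In pairs of cells, ties counted as 0.5.

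The rule for named genes took Hsf1 and Hsf2; in each family the 3 measured members with most CPM and the 2 with the largest ratio; every measured member 2-fold apart; every HSF1-induced member; and up to 4 partners and 4 ER chaperones. A few members outside the rule, such as Dnajb2, Dnajb12 and Dnajc5, were added for context after their values were seen. Members and lists were chosen with earlier results of these data known. Of the members, 88 of 89 were found in GENCODE M21, which gave positions and exon lengths; 30 overlap exons on the opposite strand and 9 on the same strand. Promoters came from RefSeq on GRCm38.p6. Tools were Python 3.11.15, numpy 2.4.6, pandas 2.3.3, scipy 1.17.1, Biopython 1.88, R 4.3.3, and edgeR 4.0.16 and DESeq2 1.42.0 for scaling factors only. Alternatives were other scalings, means or medians of cells, other filters, subsets of cells and leaving out each cell.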

Additional observations from a re-analysis of the deposited data

How the results depend on the processing

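Under every alternative run the members' median stayed above 0 and more members were higher than lower, but sizes moved. The 11 members at 2-fold or more higher became 7 with medians of cells. There 26 of 43 measured members were higher, against 52.0% of the 4601 measured genes. The 11 became 19 within the Xist pattern, and 18 and 21 against WT cells 1 to 11 and 46 to 48. Leaving out each cell gave 9 to 13. The 1 member lower by 2-fold became 4 with means and 6 with medians of cells, 3 with edgeR TMM factors, and 2 with totals that leave out mitochondrially encoded and ribosomal protein genes. It became 3 without the deepest cell of each genotype, 4 within the Xist pattern, and 5, 3 and 8 against the 3 runs of WT cells. It became 3 at a minimum of 1 CPM and 6 with no minimum, and leaving out each cell gave 1 to 3. Shares of all genes past 2-fold are given only for the main values and the subsets. The other counts therefore have no background and do not speak for the members in particular. The median of 0.22 was 0.18 with means of cells, 0.17 with TMM, 0.26 with DESeq2 factors, 0.19 with the reduced total and 0.26 without the deepest cells. It was 0.35 within the Xist pattern, 0.44, 0.14 and 0.19 against the 3 runs, and 0.18 to 0.27 when each cell was left out; the 45 higher members were then 42 to 48. Of 547 values of 47 named members under alternatives, 50 took the other sign, and 24 members never did. Among named members at least 2-fold apart 4 values did so: Dnajb3 without CKO cell 7 (-6.79, with 3.78 the highest without 1 cell), Hspbap1 without CKO cell 10 (-0.13, with 3.36 the highest) and against WT cells 46 to 48 (-0.24), and Dnajc25 against WT cells 46 to 48 (-0.25). Leaving out 1 cell turned the sign of 19 measured members and moved 16 by more than 1.5 times. The causes were not tested. TMM, DESeq2 and reduced totals put the median of all measured genes at -0.037, 0.054 and -0.027. Of these genes 47.95%, 52.74% and 48.51% were above 0. No paired analysis was possible because the numbers in the labels serve as names of cells and the results come from no test. Depth limits little here, as the lowest cell held 7458126 counts; the number of animals, which is not given, limits more.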
